A study of Mus musculus with 16 samples.

Results

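The genes of MHC class II antigen presentation were measured in mouse blood stem cells that were wild type or carried the Jak2VF allele, with and without interferon. The set held 10 genes, chosen by symbol: the class II chains H2-Aa, H2-Ab1 and H2-Eb1, the invariant chain Cd74, the peptide exchange factor genes H2-DMa, H2-DMb1 and H2-DMb2, the inhibitor genes H2-Oa and H2-Ob, and the transactivator Ciita. The array carried 14 probes for them among 25697 probes in all, with 4 probes for H2-Ab1, 2 for Cd74 (listed under its older symbol Ii) and 1 for each other gene. Of the 10 genes, 9 passed the filter on dim probes and were tested with 9680 genes in all. H2-DMb2 was above background on 1 of 16 arrays and was not tested.

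RNA from a population enriched for haematopoietic stem cells (source label HSC), isolated from mice of the strain labelled C57B16, was hybridised to 16 Illumina bead arrays, 4 for each of 4 groups. The groups were WT vehicle, WT interferon, Jak2VF vehicle and Jak2VF interferon. WT cells carried CD45.1, and the Jak2VF cells came from a knockin carrying CD45.2, so the Jak2 genotype and the CD45 allele differ together in every comparison of genotypes. Interferon alpha was given at 10000 units per day for 4 weeks, and the other mice received vehicle for 4 weeks. No label ties the 4 arrays of a group to 4 different mice, so p-values reflect the scatter of these samples alone, which may be technical.

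MHC class II molecules are pairs of an alpha and a beta chain that carry peptides from endosomes to the cell surface, where CD4 T cells read them. In the endoplasmic reticulum the invariant chain Cd74 occupies the groove, and DM later exchanges its remnant for peptide, a step that DO restrains. Transcription of these genes depends on Ciita, which binds no DNA itself and is recruited to class II promoters by the RFX, CREB and NF-Y proteins seated on neighbouring boxes called X and Y. Class II is best known from dendritic cells, macrophages and B cells, and mouse haematopoietic stem and progenitor cells can also express it.

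The promoters of these genes are shown because the shared X and Y boxes are what the class II genes have in common in sequence. RefSeq promoter windows (build GRCm38.p6, 250 bases before to 50 after a gene start) were at hand for 7 of the 10 genes, in 8 entries. H2-Ab1, Cd74 and Ciita had none. Each was searched on both strands for TGATTGG, the core of a Y box, and for GNAAC lying 24 to 36 bases upstream of it, a pattern taken from the start of the X box. These letters were chosen with the class II sequences in view. The pair was found in 5 of the 7 genes, at a start-to-start spacing of 28 to 31 bases, and in 0.356% of all 32851 promoter windows. In the windows below, read along each gene's own strand, capitals mark GNAAC and TGATTGG.
H2-Aa, chr17:34287859-34287914, minus strand: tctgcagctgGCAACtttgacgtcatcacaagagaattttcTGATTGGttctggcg
H2-Eb1, chr17:34305766-34305820, plus strand: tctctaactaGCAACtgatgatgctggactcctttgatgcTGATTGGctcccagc
H2-DMb1, chr17:34153087-34153142, plus strand: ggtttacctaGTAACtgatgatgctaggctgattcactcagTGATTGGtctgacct
H2-Oa, chr17:34092293-34092348, plus strand: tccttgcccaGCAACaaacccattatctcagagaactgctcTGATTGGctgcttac
H2-Ob, chr17:34238808-34238860, plus strand: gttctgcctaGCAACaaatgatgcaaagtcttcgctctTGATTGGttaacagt
H2-DMb2, chr17:34145116-34145171, plus strand: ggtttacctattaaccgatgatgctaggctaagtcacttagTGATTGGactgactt
TGATTGG alone was present in 6 of the 7 genes and in 7.82% of all windows. H2-DMb1 and H2-DMb2 are neighbouring duplicates, and their windows, lined up on TGATTGG, were identical at 49 of 56 bases (87.5%). The H2-DMb2 window held TGATTGG without GNAAC at the searched distance, and neither entry of H2-DMa held TGATTGG. A match in letters does not show binding, and its absence from these windows says nothing about it.

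Brightness differed between arrays before normalization: the mean intensity per array ran from 162 to 1130, and 8209 to 13055 probes were above background. WT vehicle arrays were the dimmest group (162 to 414) and Jak2VF interferon arrays the brightest (602 to 1130). The log2 brightness was higher with interferon by 1.13 in WT and by 0.81 in Jak2VF cells (two-sided exact permutation test, p = 0.0857 and 0.0571, n = 4 arrays per group, both 0.114 after adjustment over 4 comparisons, smallest possible p 0.0286). Each of 2 slides held 2 arrays of every group. All 14 stem cell markers that the array carries passed the filter, which takes 4 of 16 arrays. Cd34, Ly6a, Meis1, Gata2, Hoxa9, Eng, Cd27 and Esam were above background on all 16 arrays. Procr was above background on 1 WT vehicle, 2 Jak2VF vehicle, 3 WT interferon and 0 Jak2VF interferon arrays. In the same order of groups, Hlf was above background on 3, 1, 1 and 0 arrays and Mecom on 2, 3, 4 and 4.

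The first question was what interferon did to class II genes in each genotype. In Jak2VF cells, class II fell with interferon across chains, invariant chain, DM and transactivator: 8 of 9 tested genes were lower at an adjusted p under 0.05 (limma, Benjamini-Hochberg over all genes) and 0 were higher, where 9.46% of all tested genes were called lower and 6.51% higher. The classical chains and Cd74 dropped to between 16.3% and 32.3% of their vehicle level. In WT cells 1 of the 9 genes was called, H2-DMb1, which fell to 50.5% of its vehicle level, where 1.01% of all tested genes were called lower. The median log2 difference over the 9 genes was -1.63 in Jak2VF and -0.98 in WT cells, beside -0.00 and 0.05 over all tested genes. Ciita passed the filter without any Jak2VF interferon array, so a low value there was built into its selection. The 4 arrays of each group did not overlap for 7 of the 9 genes in Jak2VF cells, leaving Ciita aside because values not above background decide its order (15.9% of all tested genes, lower), and for 4 in WT cells (5.1%). With the slide as a block the counts were again 8 and 1. Within either slide, 2 arrays against 2, 0 of the 9 genes were called in both genotypes (limma), while 9 of 9 differences in Jak2VF cells were below 0 on each slide.

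The counts depend on how arrays are scaled. When each array was centred on the median of all its probes, detected or not, in place of quantile normalization, the median of all tested genes itself moved to 0.56 in Jak2VF and to 1.12 in WT cells. Under that centring 0 of 9 genes were called in Jak2VF cells, with differences of -1.94 to 0.18, or -2.50 to -0.39 relative to the median gene. In WT cells 2 genes were then called higher, H2-Oa (1.47) and H2-Ob (1.12), and H2-DMb1 stood at 0.46, or -0.66 relative to the median gene. Centring over the probes that passed the filter gave 8 genes lower in Jak2VF cells and 2 lower in WT cells, H2-DMb1 and Ciita.

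**Figure D1:**
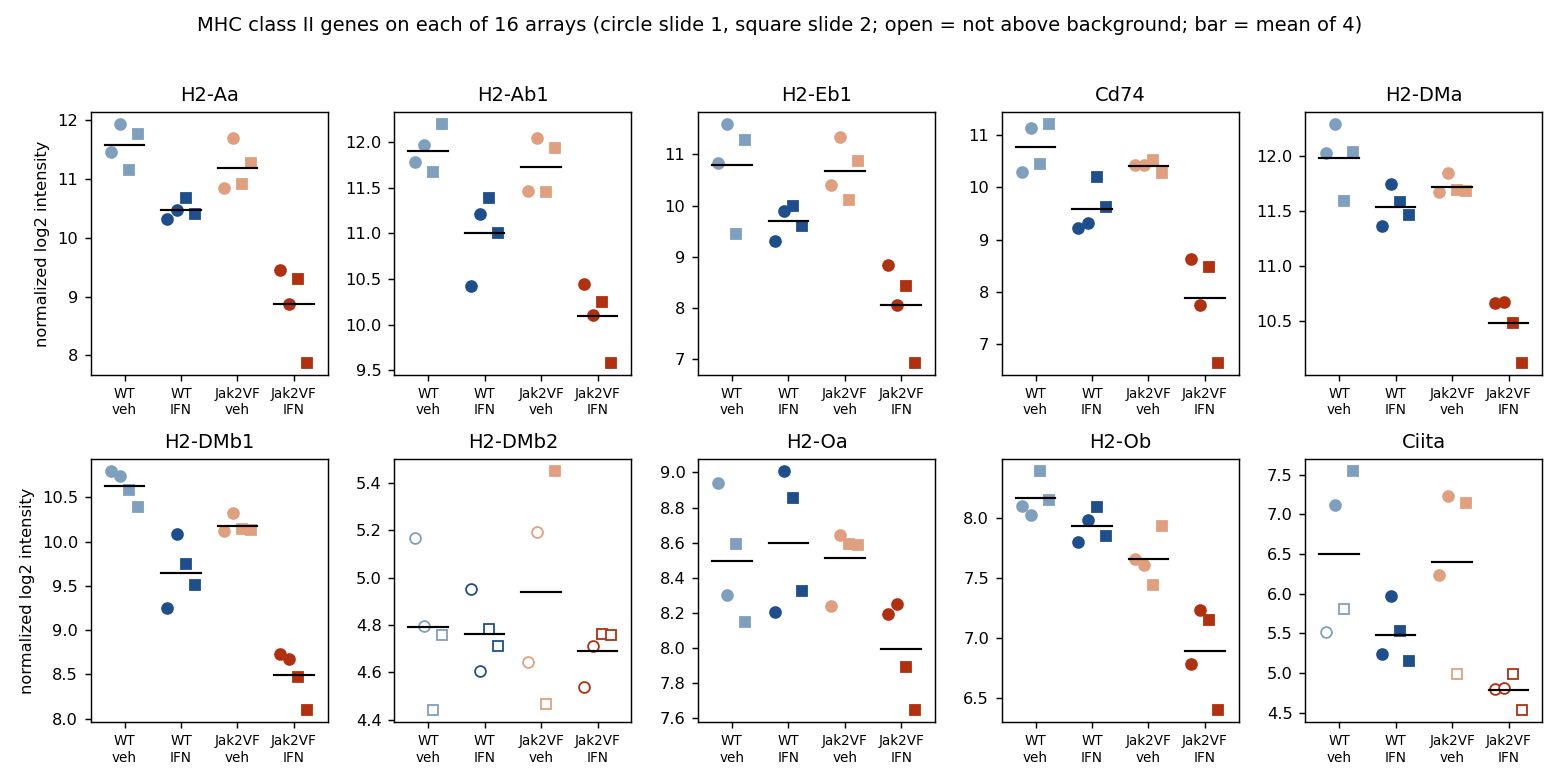
Normalized log2 intensity of each class II gene (vertical axis, one panel per gene) on the 16 arrays, by group; circles are slide 1, squares slide 2, open symbols are not above background and bars are means of 4 arrays. For H2-Aa, H2-Eb1 and Cd74 the 4 Jak2VF interferon arrays lie below all other arrays, and for Ciita all 4 are open symbols.

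In bulk RNA, fewer cells that carry class II and less class II RNA per cell cannot be told apart, so markers of other cells that the sorted population could hold are given here. Of 14 B cell markers on the array 2 passed the filter, and Cd22, Blk and Cr2 were above background on no array. The summed level of the B cell list was 1058 to 1619 in WT vehicle, 830 to 1114 in WT interferon, 871 to 1177 in Jak2VF vehicle and 526 to 702 in Jak2VF interferon arrays. It was thus lowest in the same group as class II, and highest by its median in WT vehicle, the dimmest group. These list sums, here and below, include markers that did not pass the filter, so background signal enters them. The part of array brightness in them was not tested. Cd79b, a signalling chain of the B cell receptor, fell by 1.35 on the log2 scale in Jak2VF cells with interferon (adjusted p = 0.00206), and no B cell marker was called in WT cells.

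The dendritic cell list summed to 1465 to 2485, 1225 to 2551, 1260 to 1911 and 1424 to 2301 in WT vehicle, WT interferon, Jak2VF vehicle and Jak2VF interferon arrays, ranges that overlap throughout. Of its 12 markers on the array 4 passed the filter, and Itgax, Clec9a, Xcr1, Batf3, Cd209a and Naaa were above background on no array. Siglech and Bst2 were above background on all 16. Ly6d was above background on 3 WT vehicle, 2 Jak2VF vehicle and 0 interferon arrays of either genotype. Ccr7 was above background only on 1 array of each interferon group, and Flt3 only on 1 WT interferon array. Zbtb46, a factor of conventional dendritic cells, was above background on 1 of 4 Jak2VF vehicle and 4 of 4 Jak2VF interferon arrays and on no WT array, so a rise with interferon in Jak2VF cells (adjusted p = 0.0426) was built into its selection. The macrophage and monocyte list, 9 of 13 markers passing, summed to 3909 to 4504, 2647 to 3637, 2671 to 3911 and 1381 to 2253 in the same order. Within it Lyz2, lysozyme, fell by 1.32 (0.00104) in Jak2VF cells, while Cx3cr1, the fractalkine receptor, rose by 1.52 (0.000801). C1qc, a complement chain, was called higher there (0.0162) but was above background on no vehicle array of either genotype, so this too was built into its selection. Mertk and Ccr2 were above background on no array.

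Markers of cells with little or no class II also moved. The eosinophil list summed to 7371 to 33680 in WT and 6589 to 19560 in Jak2VF vehicle arrays. In the interferon arrays it summed to 199 to 1396 and 183 to 1059. In each genotype 5 of 5 tested markers of the list were lower, where 1.01% (WT) and 9.46% (Jak2VF) of all tested genes were called lower. Its leading gene Prg2, a major basic protein gene, fell by 4.82 (0.0348) in WT and fell by 5.06 (0.00546) in Jak2VF cells. The plasma cell list summed to 2904 to 4468, 2233 to 2810, 2569 to 3343 and 1656 to 2104 in WT vehicle, WT interferon, Jak2VF vehicle and Jak2VF interferon arrays, and Mzb1 fell with interferon in WT (6.93e-05) and in Jak2VF cells (0.000313). Mzb1 was above background on all 8 vehicle arrays, on 1 of 4 WT interferon and on 0 of 4 Jak2VF interferon arrays. It passed the filter through the vehicle arrays, so a fall with interferon was built into its selection, and no exact fold is given. The T cell list had 1 of 9 markers passing and summed to at most 461 on any array, reached on the third WT vehicle array, the dimmest. The list for NK and innate lymphoid cells had 4 of 10 passing and summed to 11260 to 13770 in WT vehicle, 8086 to 13610 in WT interferon, 9511 to 10750 in Jak2VF vehicle and 4543 to 7639 in Jak2VF interferon arrays. Nkg7, a granule gene of cytotoxic cells, was its 1 marker called lower in Jak2VF cells with interferon (-0.94, 0.00199).

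The stem cell list moved as well. It summed to 25160 to 31730 in WT vehicle, 26740 to 30060 in WT interferon, 21490 to 24240 in Jak2VF vehicle and 8911 to 16270 in Jak2VF interferon arrays. In Jak2VF cells 6 of 14 markers fell with interferon, where 9.46% of all tested genes were called lower. They included Esam (-2.11, 0.00114), Cd34 (-1.65, 0.000712) and Cd27 (-1.51, 0.000643). In WT cells 0 of 14 were called. The part of any of these cell types in the class II result was not tested.

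**Figure D2:**
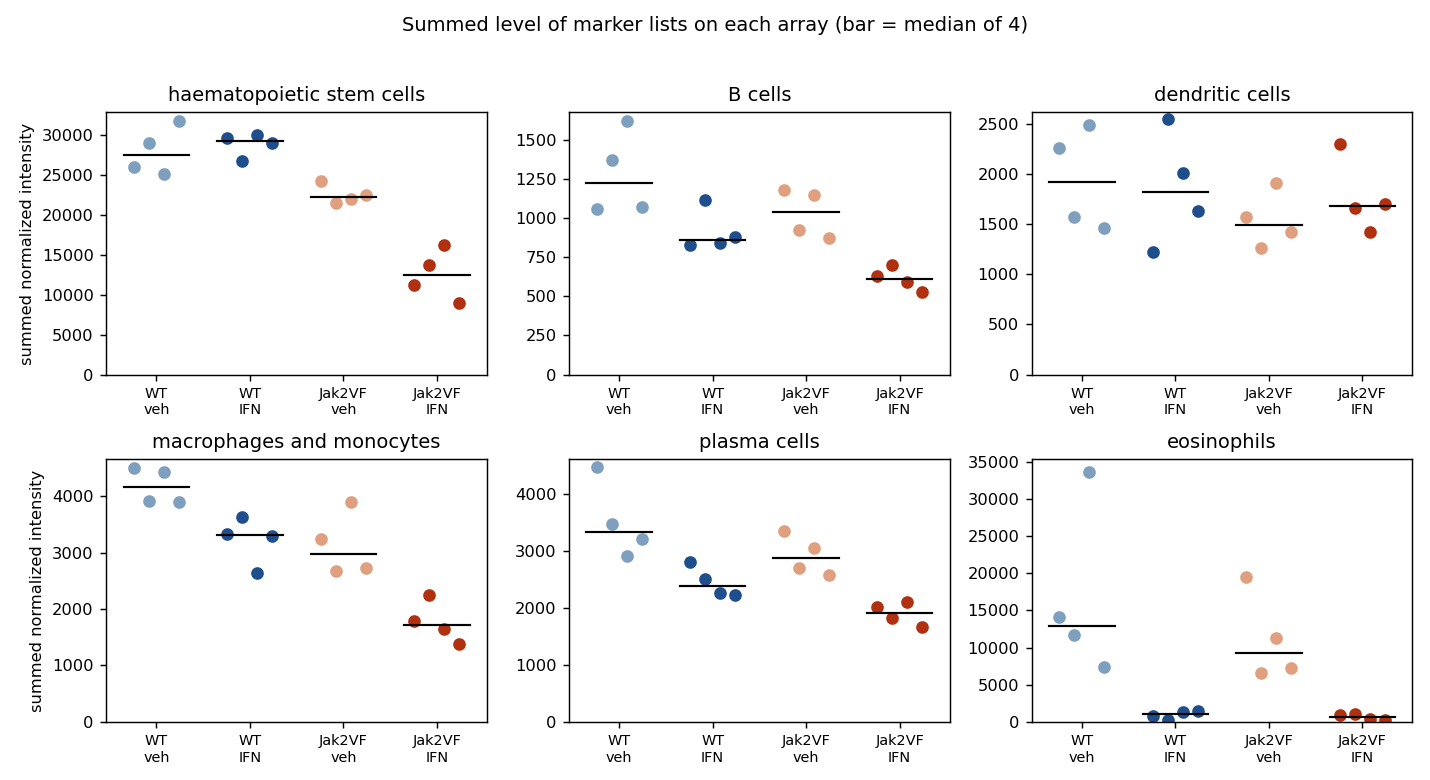
Summed normalized intensity (vertical axis, linear from 0) of 6 marker lists on each of the 16 arrays by group, with a bar at the median of 4 arrays. The stem cell, B cell, macrophage and plasma cell lists are lowest in the Jak2VF interferon arrays, and the dendritic cell list overlaps across all groups. Markers that did not pass the filter are included in the sums.

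The classical chains form the molecule that holds the peptide. H2-Aa encodes the alpha chain of I-A. Its normalized log2 intensity was 10.84, 11.70, 10.91 and 11.27 on the Jak2VF vehicle arrays and 9.45, 8.88, 9.30 and 7.88 on the Jak2VF interferon arrays. In WT cells it was 11.45, 11.93, 11.15 and 11.77 with vehicle and 10.31, 10.47, 10.68 and 10.40 with interferon. In both genotypes every interferon array lay below every vehicle array. H2-Aa fell by 2.30 in Jak2VF cells (SE 0.30, adjusted p = 0.000405), to 20.2% of the vehicle level, and stood at -1.11 in WT cells (SE 0.30, 0.0567). Within slides the Jak2VF difference was -2.11 and -2.50 and the WT difference -1.30 and -0.92.

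H2-Ab1 encodes the beta chain of I-A. It stood at 11.47, 12.05, 11.46 and 11.94 on the Jak2VF vehicle arrays and at 10.44, 10.11, 10.25 and 9.58 with interferon. WT arrays read 11.78, 11.97, 11.68 and 12.20 with vehicle and 10.42, 11.21, 11.39 and 11.01 with interferon. The groups were again apart in both genotypes, and the first WT interferon array was the lowest of the WT arrays. H2-Ab1 fell by 1.63 in Jak2VF cells (SE 0.23, 0.000606), and the WT difference was -0.90 (SE 0.23, 0.0523). Its 4 probes, tested one by one, differed by -1.59 to -1.87 in Jak2VF cells, all called, and by -0.49 to -1.26 in WT cells, where 3 of the 4 were called (0.0499, 0.031 and 0.0351, over 13364 probes) and the probe with -0.49 was not (0.126). Within slides the Jak2VF difference was -1.48 and -1.78 and the WT difference -1.06 and -0.74.

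H2-Eb1 encodes the beta chain of I-E. Its partner gene H2-Ea was above background on no array. H2-Eb1 read 10.41, 11.33, 10.11 and 10.87 on the Jak2VF vehicle arrays and 8.83, 8.06, 8.43 and 6.93 with interferon, 2 groups without overlap. On WT arrays it read 10.83, 11.59, 9.45 and 11.28 with vehicle and 9.32, 9.90, 9.99 and 9.61 with interferon. The third WT vehicle array, the dimmest of the 16, lay inside the range of the interferon arrays. The gene fell by 2.62 in Jak2VF cells (SE 0.45, 0.00175), the largest fitted difference among the 9 genes, and its WT difference was -1.08 (SE 0.45, 0.123). Within slides the values were -2.42 and -2.81 in Jak2VF cells and -1.60 and -0.56 in WT cells.

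In WT cells several genes sat near the threshold. H2-Aa (-1.06, 0.0272), H2-Ab1 (-0.86, 0.0319) and Cd74 (-1.08, 0.0332) were called there beside H2-DMb1 when background was not corrected, and the same 4 genes were called from the authors' processed values. Leaving out 1 array also changed calls. H2-Aa was called when the second interferon array (0.0344) or the fourth vehicle array (0.0462) of WT cells or the fourth Jak2VF interferon array (0.0259) was left out. H2-Ab1 was called when WT vehicle replicate 2 (0.0458) or replicate 4 (0.0449), the second WT interferon array (0.023) or the fourth Jak2VF interferon array (0.0487) was left out. Cd74 was called when the fourth Jak2VF interferon array was left out (0.0443), and H2-DMa when the second WT interferon array was (0.0444). The Jak2VF arrays enter these values through the shared estimate of the spread. In Jak2VF cells the calls for the chains, Cd74, both DM genes and H2-Ob held in each of the 16 fits that left out 1 array.

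Cd74, the invariant chain that guides and plugs new class II molecules, followed the chains. It stood at 10.43, 10.43, 10.53 and 10.28 on the Jak2VF vehicle arrays and at 8.63, 7.74, 8.47 and 6.63 with interferon. WT arrays read 10.29, 11.14, 10.44 and 11.22 with vehicle and 9.22, 9.32, 10.21 and 9.63 with interferon. The vehicle arrays of Jak2VF cells were tightly grouped (SD 0.10) and their interferon arrays widely spread (SD 0.91), without overlap. Cd74 fell by 2.55 in Jak2VF cells (SE 0.37, 0.000656), and the WT difference was -1.18 (SE 0.37, 0.0713), also without overlap. Its second probe gave -2.48 in Jak2VF and -0.94 in WT cells. Within slides the difference was -2.24 and -2.85 in Jak2VF and -1.45 and -0.91 in WT cells.

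H2-DMa and H2-DMb1 encode the alpha and a beta chain of DM, which swaps the invariant chain remnant for peptide. H2-DMb1 read 10.12, 10.32, 10.15 and 10.13 on the Jak2VF vehicle arrays and 8.72, 8.67, 8.47 and 8.10 with interferon. On WT arrays it read 10.80, 10.75, 10.59 and 10.39 with vehicle and 9.25, 10.08, 9.74 and 9.51 with interferon. It was the gene whose groups were apart and called in both genotypes. H2-DMb1 fell by 1.69 in Jak2VF cells (SE 0.18, 0.000158), the smallest adjusted p among the 9 genes, and fell by 0.98 in WT cells (SE 0.18, 0.0148). In WT cells it was no longer called when the first vehicle array (0.0544), the first interferon array (0.054) or the fourth interferon array (0.0617) was left out, with array brightness as a covariate (-0.69, 0.367) and when only the WT arrays entered the fit (0.124). Within slides the difference was -1.11 and -0.86 in WT and -1.52 and -1.86 in Jak2VF cells.

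H2-DMa read 11.67, 11.85, 11.69 and 11.68 on the Jak2VF vehicle arrays and 10.66, 10.67, 10.48 and 10.12 with interferon. On WT arrays it read 12.03, 12.29, 11.59 and 12.03 with vehicle and 11.36, 11.75, 11.58 and 11.46 with interferon. The Jak2VF groups were apart by more than their spread, and the WT groups overlapped through the third vehicle array. H2-DMa fell by 1.24 in Jak2VF cells (SE 0.16, 0.000405), to 42.3% of the vehicle level, and its WT difference was -0.45 (SE 0.16, 0.0897). Within slides it was -1.10 and -1.39 in Jak2VF and -0.61 and -0.29 in WT cells. H2-DMb2, the second DM beta gene, read 4.44 to 5.45 over all 16 arrays and was above background on 1 Jak2VF vehicle array, so no difference is given.

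H2-Oa and H2-Ob encode the alpha and beta chain of DO, which restrains DM. The 2 chains differed in their calls. H2-Ob read 7.66, 7.61, 7.44 and 7.93 on the Jak2VF vehicle arrays and 6.79, 7.23, 7.15 and 6.41 with interferon, without overlap. WT arrays read 8.10, 8.03, 8.39 and 8.15 with vehicle and 7.80, 7.98, 8.09 and 7.85 with interferon, overlapping. H2-Ob fell by 0.76 in Jak2VF cells (SE 0.17, 0.00848) and stood at -0.24 in WT cells (SE 0.17, 0.343).

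H2-Oa read 8.24, 8.64, 8.59 and 8.59 on the Jak2VF vehicle arrays and 8.19, 8.25, 7.89 and 7.65 with interferon. WT arrays read 8.94, 8.30, 8.59 and 8.15 with vehicle and 8.21, 9.01, 8.86 and 8.32 with interferon. Its groups overlapped in both genotypes. The difference was -0.52 in Jak2VF cells (SE 0.21, 95% confidence interval -0.98 to -0.06, 0.116) and 0.10 in WT cells (SE 0.21, 95% confidence interval -0.35 to 0.56, 0.752). In Jak2VF cells H2-Oa was called without the 3 dimmest arrays (0.0333) and when only the Jak2VF arrays entered the fit (0.039). Within slides it was -0.22 and -0.82 in Jak2VF and -0.01 and 0.22 in WT cells, and H2-Ob was -0.62 and -0.91 and -0.17 and -0.30.

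Ciita, the coactivator on which transcription of the class II genes depends, was dim. It was above background on 2 of 4 WT vehicle, 3 of 4 Jak2VF vehicle, 4 of 4 WT interferon and 0 of 4 Jak2VF interferon arrays. It read 6.24, 7.24, 5.0 and 7.14 on the Jak2VF vehicle arrays and 4.81, 4.81, 4.99 and 4.54 with interferon. WT arrays read 5.51, 7.12, 5.81 and 7.54 with vehicle and 5.24, 5.98, 5.53 and 5.15 with interferon. Each vehicle group thus split into higher and lower arrays, and the highest Jak2VF interferon array and the lowest Jak2VF vehicle array were both not above background, so their order decides nothing. The WT vehicle arrays where Ciita was not above background, replicates 1 and 3, were the dimmest 2 of the 16 (mean intensity 246 and 162), and the part of brightness in this was not tested. Ciita fell in Jak2VF cells (adjusted p = 0.0344). Since no interferon array measured it there, the fold is a bound, at least 2.30-fold lower, taken from the mean of all vehicle arrays against the higher of the gene's own signal and the lowest signal above background on each interferon array. In WT cells the difference was -1.02 (SE 0.48, 0.16).

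The Ciita call rested on single arrays: it was lost when Jak2VF vehicle replicate 1 (0.065), 2 (0.0982) or 4 (0.0966) was left out, when Jak2VF interferon replicate 1 (0.0598), 2 (0.0638), 3 (0.0603) or 4 (0.102) was, and when dim probes were not filtered out (0.0596). The DNA-bound partners of Ciita did not show a call. Of 7 factors (RFX subunits, NF-Y subunits and Creb1) 6 passed the filter and 0 were called in Jak2VF or in WT cells. The smallest p in Jak2VF cells was that of Nfya, an NF-Y subunit, at 0.90 (0.224), and in WT cells that of Nfyc at 0.21 (0.267). Rfx5 was above background on 1 array and was not tested.

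Of 9 regulators known to act on Ciita transcription 6 passed the filter, and 1 was called in Jak2VF cells. Over all tested genes 9.46% were called lower there. Irf1, an interferon-induced activator of Ciita, fell by 1.41 (0.0015) in Jak2VF cells with interferon and stood at -0.64 (0.0972) in WT cells. Irf4 and Prdm1, which encodes a repressor of Ciita, were above background on no array.

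**Figure D3:**
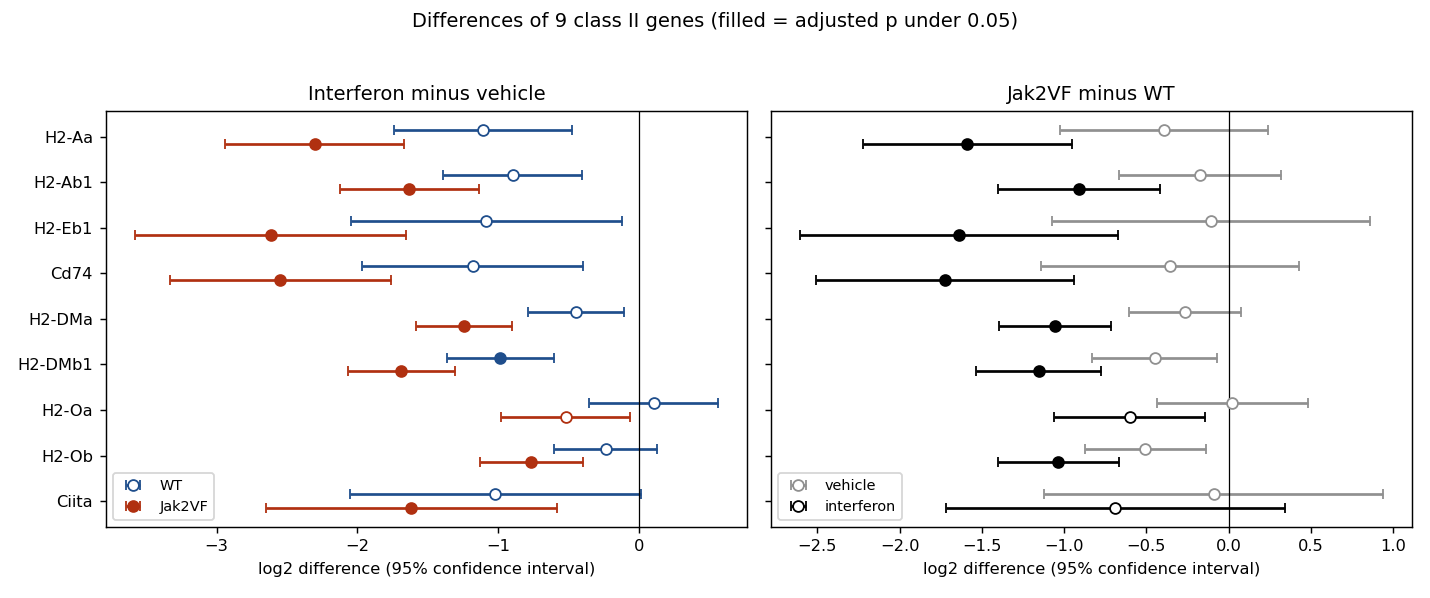
Log2 differences (horizontal axis) of the 9 tested class II genes with 95% confidence intervals, interferon minus vehicle in WT and Jak2VF cells on the left and Jak2VF minus WT with vehicle and with interferon on the right; filled points have an adjusted p under 0.05. The Jak2VF interferon points run from -2.62 to -0.52 after quantile normalization, and under centring on all probes H2-Oa turns to 0.18 there.

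The next comparison asked how Jak2VF cells differed from WT cells at the same treatment. With vehicle, 0 of the 9 genes were called (limma), where 0.424% of all tested genes were called, and 2016 genes had an unadjusted p under 0.05. Among the 9 genes only H2-Ob (0.0101) and H2-DMb1 (0.0231) had an unadjusted limma p under 0.05. Differences ran from -0.51 to 0.02, and the median was -0.26. H2-Ob (-0.51, SE 0.17, 0.154) and H2-DMb1 (-0.45, SE 0.18, 0.191) had groups that did not overlap, 2 of 9 genes where 4.14% of all tested genes were lower in this way. For H2-Eb1 the 95% confidence interval was -1.07 to 0.86. Under centring on all probes, where the median gene stood at 0.89, each of the 9 genes was above 0, and relative to the median gene H2-Ob stood at -0.34 and Ciita at -0.59.

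With interferon, 7 of the 9 genes were lower in Jak2VF than in WT cells, where 10.1% of all tested genes were called lower. H2-DMa was at 48.1% (-1.06, SE 0.16, 0.000509), H2-DMb1 at 44.9% (-1.16, SE 0.18, 0.000568) and H2-Ob at 48.8% (-1.04, SE 0.17, 0.000962) of the WT level. H2-Aa stood at -1.59 (SE 0.30, 0.0022), Cd74 at -1.72 (SE 0.37, 0.00504), H2-Ab1 at -0.91 (SE 0.23, 0.0133) and H2-Eb1 at -1.64 (SE 0.45, 0.021). Except for H2-Ab1, the groups of these 7 genes did not overlap (14.7% of all tested genes, lower). Ciita is left aside here too, since it was above background on no Jak2VF interferon array. H2-Oa was at -0.60 (SE 0.21, 0.067). Ciita was at least 1.21-fold lower by its bound, without a call (0.392).

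Within slides the difference in interferon-treated cells was larger on slide 2 for the chains: -1.23 and -1.95 for H2-Aa, -0.54 and -1.28 for H2-Ab1, -1.16 and -2.12 for H2-Eb1 and -1.08 and -2.37 for Cd74. The difference between slides was not tested. H2-Eb1 lost its call when WT interferon replicate 2 (0.0521), WT interferon replicate 3 (0.0567) or the fourth Jak2VF interferon array (0.0783) was left out. The last of these also removed the call of H2-Ab1 (0.0544), and H2-Oa was called when the first WT interferon array was left out (0.0388). Under centring on all probes 0 of 9 genes were called, with values of -1.62 to -0.52 relative to the median gene. Centring over passing probes gave 6, without H2-Ab1 (-0.69, 0.0674), and array brightness as a covariate gave 7.

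Since the comparisons share arrays, their values are only set side by side, and whether the interferon change differed by genotype was tested directly. The difference of the 2 interferon changes, Jak2VF minus WT, was below 0 for all 9 genes, at -1.53 for H2-Eb1 to -0.53 for H2-Ob, with a median of -0.73 beside -0.07 over all tested genes. None was called: 0 of 9 genes passed (limma), where 0.114% of all tested genes passed and 1361 genes had an unadjusted p under 0.05. Among the 9 genes the unadjusted limma p was under 0.05 except for H2-Oa (0.0579) and Ciita (0.397). The smallest adjusted p among the 9 was that of H2-DMa (-0.79, SE 0.23, 0.141). H2-Aa gave -1.19 (SE 0.42, 95% confidence interval -2.09 to -0.30, 0.221). A fall of class II that passes the threshold in Jak2VF cells and not in WT cells is therefore not shown to differ between genotypes at this number of arrays.

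Put in order, the mean level of H2-Aa was 11.57 ± 0.35 in WT vehicle, 11.18 ± 0.39 in Jak2VF vehicle, 10.47 ± 0.16 in WT interferon and 8.88 ± 0.71 in Jak2VF interferon arrays (SD, n = 4). The first 2 groups did not differ beyond their spread, and the later steps were between groups that did not overlap. H2-Ab1 (11.90 ± 0.23, 11.73 ± 0.31, 11.01 ± 0.42, 10.10 ± 0.37), Cd74 (10.77 ± 0.47, 10.42 ± 0.10, 9.59 ± 0.45, 7.87 ± 0.91) and H2-Eb1 (10.79 ± 0.94, 10.68 ± 0.54, 9.70 ± 0.31, 8.06 ± 0.82) kept that order of groups. So did H2-DMb1 (10.63 ± 0.18, 10.18 ± 0.10, 9.65 ± 0.35, 8.49 ± 0.28) and H2-DMa (11.99 ± 0.29, 11.72 ± 0.08, 11.54 ± 0.17, 10.48 ± 0.26). The Jak2VF vehicle and WT interferon arrays overlapped for H2-DMa, and the WT interferon and Jak2VF interferon arrays overlapped for H2-Ab1. H2-Ob had the middle groups exchanged (8.17 ± 0.16, 7.66 ± 0.20, 7.93 ± 0.13, 6.90 ± 0.38). For H2-Oa the first 3 groups (8.49 ± 0.35, 8.52 ± 0.19, 8.60 ± 0.39) overlapped and the Jak2VF interferon mean was 8.0 ± 0.28.

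Within 3 of the 4 groups 1 array stood at an end of the range for most genes. The fourth Jak2VF interferon array was the lowest of its group for 9 of 9 tested genes, and the first WT interferon array was the lowest of its group for 8 of 9. The second Jak2VF vehicle array was the highest of its group for 7 of 9. In the WT vehicle group no array was highest for more than 3 or lowest for more than 4 of the 9 genes. Relative to their own means over the 16 arrays, H2-Aa, H2-Ab1, H2-Eb1 and Cd74 averaged -0.96, -1.60, -1.18 and -2.54 on the Jak2VF interferon arrays and 0.79, 1.36, 0.38 and 1.32 on the WT vehicle arrays, in log2 units.

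Genes whose profile over the 16 arrays was nearest to that average were then ranked by the root mean square difference in log2 units, after centring each gene. The value was 0.41 for H2-DMb1, rank 5 of all tested genes after the 4 genes that make the average, and the median over all tested genes was 1.13. The nearest genes outside the class II set were Vldlr, a lipoprotein receptor (0.41), Stxbp4, a syntaxin-binding protein (0.41), Lag3, whose protein binds class II (0.43), the calmodulin-binding Nrgn (0.44), 1700025G04Rik (0.46) and Il12a, a cytokine subunit (0.47). Among the remaining members H2-DMa ranked 29, Ciita 134, H2-Ob 321 and H2-Oa 1331. Genes that fall in the same groups stand near each other by this measure whatever their role. The interferon differences of these 6 genes in Jak2VF cells, -1.58 for Il12a to -2.10 for Vldlr, follow from that choice and are given as a description.

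**Figure D4:**
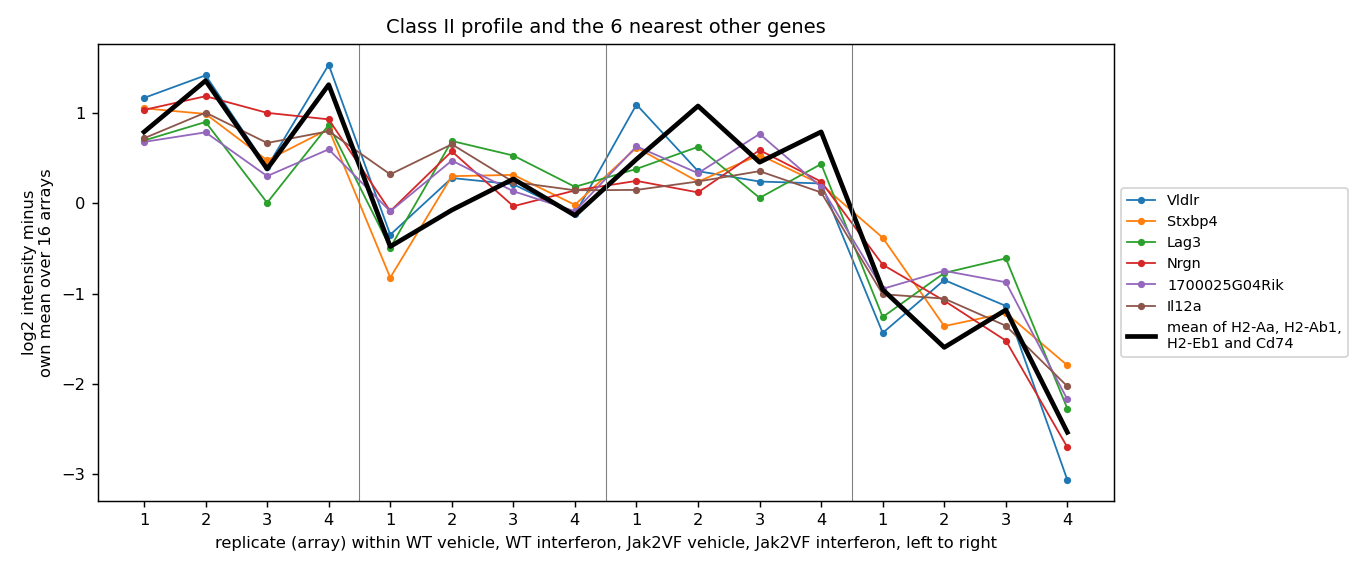
Log2 intensity of each gene minus its own mean over 16 arrays (vertical axis), for the arrays in order of group and replicate (horizontal axis). The heavy line is the mean of H2-Aa, H2-Ab1, H2-Eb1 and Cd74, with -2.54 on the fourth Jak2VF interferon array, and the thin lines are the 6 nearest other genes.

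Other steps of the pathway were called less evenly. Over all tested genes, 9.46% were called lower with interferon in Jak2VF and 1.01% in WT cells. Of 9 tested genes for class II antigen processing and turnover 2 fell in Jak2VF cells with interferon, Ctsh, a cathepsin (-1.07, 0.0191), and Cst3, the cathepsin inhibitor cystatin C (-0.71, 0.00628). Ctsh also fell in WT cells, by 1.30 (0.0335). The list's median was -0.10 in Jak2VF and 0.05 in WT cells. Of 4 tested genes of costimulation and coinhibition 1 fell in Jak2VF cells, Cd274, which encodes the inhibitory ligand PD-L1 (-1.14, 0.00044). In WT cells 0 of the 4 were called, and the smallest p was that of Cd86 (-1.39, 0.0818).

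Class I presentation, which uses its own transactivator Nlrc5, had a median of -0.11 in Jak2VF cells. There 4 of 12 genes were lower (9.46% of all tested genes) and 0 higher (6.51%). The 4 were the immunoproteasome subunits Psmb8 (-0.96, 0.0413), Psmb10 (-0.67, 0.0177) and Psmb9 (-0.44, 0.028) and the peptide transporter chain Tap2 (-0.37, 0.0476). In WT cells 0 of 12 class I genes were called (limma), and the smallest p was that of Psmb10 (-0.68, 0.0523).

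Several of these genes lie between the class II genes on chromosome 17, which lets neighbours be compared. From H2-Oa to H2-Eb1, RefSeq lists 13 protein-coding genes here, 8 of them class II genes of the set and 5 others. In Jak2VF cells the difference was -1.24 at H2-DMa and -1.69 at H2-DMb1, then -0.44 at Psmb9, -0.17 at Tap1, -0.96 at Psmb8 and -0.37 at Tap2, and again -0.76 at H2-Ob, -1.63 at H2-Ab1, -2.30 at H2-Aa and -2.62 at H2-Eb1. Of the 5 neighbours Psmb8, Psmb9 and Tap2 were called, and Brd2 (-0.16, 0.496) and Tap1 (-0.17, 0.61) were not. The difference at Psmb8 was larger than that at H2-Ob, and differences between neighbours were not tested. Over the wider list of other genes of this region 3 of 13 fell in Jak2VF cells (Psmb8, Psmb9 and Tap2), with a median of -0.26. Among all tested genes 9.46% were called lower there. In WT cells 1 of 13 fell, where 1.01% of all tested genes were called lower. The gene was Notch4 (-0.98, 0.0209), which lies outside the run of 13 genes.

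**Figure D5:**
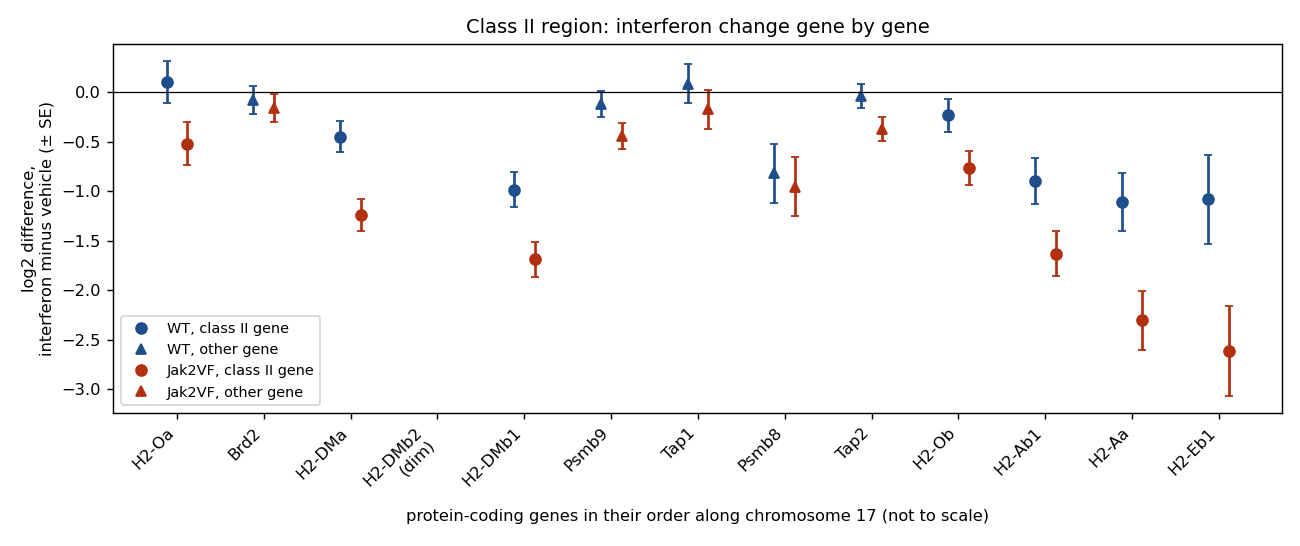
Log2 difference of interferon minus vehicle (vertical axis, bars ± SE) for the 13 protein-coding genes from H2-Oa to H2-Eb1 in their order on chromosome 17 (horizontal axis, not to scale), in WT and Jak2VF cells; circles are class II genes and triangles other genes. In Jak2VF cells the class II genes from H2-Ab1 to H2-Eb1 stand at -1.63 to -2.62 and Tap1 at -0.17 (quantile normalization); H2-DMb2 was too dim to test.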

How the data were processed

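Total RNA was amplified, biotin labelled and hybridised to Illumina bead arrays, per the labels' protocols. The deposited table holds one average signal intensity and one detection p-value per probe and array, per the file headers, while the scanner software is not given in the sources used here, nor is any earlier background treatment. Another deposited table gives the authors' processed intensity values, on a linear scale with column medians of 119 to 120, whose background treatment and normalization are not stated. It ranks probes as the scanner values do and served as an alternative.

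With limma 3.58.1 in R 4.3.3, intensities were background corrected by normexp with parameters from the detection p-values and an offset of 16, then quantile normalized, then log2 transformed. Probes with a detection p under 0.05 on at least 4 arrays were kept (13364 of 25697), and each gene took its brightest probe. A model of 4 group means over 16 arrays was fitted to 9680 genes with lmFit, then eBayes (residual degrees of freedom 12, prior 2.73), with Benjamini-Hochberg adjustment over all genes within each comparison and calls at an adjusted p under 0.05. The same model fit was also run on log2 values simulated from the normalized arrays with known changes. Background correction, normalization and the filter were not part of that run. For a probe not above background on any array of a group, a fold is a bound on the observed group means, without sampling error. The number of arrays limits the precision.

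Samples were grouped by genotype and treatment in the labels. Replicate numbers follow deposition order and pair nothing. Slides come from the array names. Symbols in the file were updated through RefSeq (7082 probes) and 21 symbols damaged to dates were not used. The 10 class II genes are always named, other lists by up to 4 called genes of largest change or the gene of smallest p. The members and lists were chosen with earlier results of these data known. Alternatives covered background correction, normalization, the filter, the probe rule, slide, brightness, dim arrays, the groups in the fit and leaving out each array. Some list genes are not reported here.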

Additional observations from a re-analysis of the deposited data

Results flagged for a closer look

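In each of 36 combinations of tested class II gene and group, the gap between the highest or lowest array and its nearest neighbour was set against the range of the 4 arrays. In 3 of them the gap took more than 0.829 of the range, Dixon's 95% limit, and chance alone passes this limit in about 1 of 20 groups. All 3 lay in the tightly grouped Jak2VF vehicle arrays. H2-DMa read 11.85 on replicate 2 (0.893 of the range) and H2-DMb1 read 10.32 on the same array (0.853), both above the other 3 arrays. H2-Oa read 8.24 on replicate 1 (0.856), below the other 3. Leaving out Jak2VF vehicle replicate 1 or 2 changed no call of these 3 genes.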

How the results depend on the processing

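Called class II genes numbered 8 with interferon in Jak2VF cells, 1 in WT cells, 7 for Jak2VF against WT with interferon, and 0 in the other 2 comparisons. The WT count was 4 without background correction and with the authors' processed values, 2 with centring over passing probes, with a detection p under 0.01 and with the mean of passing probes, 2 (both higher) with centring over all probes, and 0 within either slide, with brightness as a covariate and with only the WT arrays. The Jak2VF count and the count for Jak2VF against WT with interferon were 0 with centring over all probes, an alternative chosen after seeing the data, and 0 within either slide. The Jak2VF count was 7 without the filter on dim probes and 9 without the 3 dimmest arrays or with only the Jak2VF arrays. The count for Jak2VF against WT with interferon was 6 with centring over passing probes and 8 with only those groups. Leaving out 1 array gave 0 to 4 in WT, 7 to 8 in Jak2VF, 5 to 8 for Jak2VF against WT with interferon, and 0 in the others. The slide as a block changed no call of the 9 genes.

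Signs turned as follows. With centring over all probes, the WT interferon difference was 0.22 for H2-Aa, 0.37 for H2-Ab1, 0.31 for H2-Eb1, 0.25 for Cd74, 0.82 for H2-DMa, 0.46 for H2-DMb1 and 1.12 for H2-Ob. Relative to the median gene, which stood at 1.12, these were -0.90, -0.75, -0.81, -0.87, -0.30, -0.66 and 0.0033, so 6 of the 7 kept their sign against other genes. H2-Oa was 0.18 in Jak2VF cells. Jak2VF against WT with vehicle was then 0.72 for H2-Aa, 0.93 for H2-Ab1, 1.04 for H2-Eb1, 0.82 for Cd74, 0.84 for H2-DMa, 0.74 for H2-DMb1, 0.55 for H2-Ob and 0.30 for Ciita, or -0.17, 0.04, 0.15, -0.08, -0.06, -0.15, -0.34 and -0.59 relative to the median gene at 0.89. This centring rests on probes below background and moves the median gene, and the cause of the remaining shift was not tested. In the vehicle comparison H2-Eb1 was 0.10 with centring over passing probes and 0.13 within slide 2, H2-Oa -0.18 and Ciita 0.42 within slide 1. H2-Oa in WT cells was -0.012 within slide 1. The Ciita difference of interferon changes was 0.028 within slide 2 and 0.41 without the 3 dimmest arrays. When 1 array was left out, H2-Oa in WT cells ranged from -0.032 to 0.25, and in the vehicle comparison H2-Oa ranged from -0.095 to 0.17, H2-Eb1 from -0.55 to 0.16 and Ciita from -0.42 to 0.38.

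No paired analysis was possible because the replicate numbers follow deposition order. Ciita and H2-DMb2 lay near or below background, which limits both.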
